A study of Homo sapiens with 6 samples.

Results

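The 10 genes described here drive or restrain the passage of cells through G1: MYC, the D cyclin genes CCND1 and CCND2, the E cyclin genes CCNE1 and CCNE2, the kinase genes CDK4 and CDK6, RB1, and the inhibitor genes CDKN1B and CDKN2A. They were named as a set for their roles in G1, with earlier results of these data known, and all 10 had a score, as did 19717 of the 20098 protein-coding genes of the GENCODE annotation on the 23 chromosomes with bins. The data came from tethered chromatin capture (TCC), which like Hi-C reads out chromosomal contacts but ligates them on a surface, in T47D cells, an estrogen receptor-positive breast cancer line. Parental cells were starved of hormone for 72 h and then taken without hormone (T0) or after 1, 4, 16 and 24 h of 100 nM 17β-estradiol, abbreviated E2 (T1, T4, T16 and T24). The other condition was a tamoxifen-resistant T47D derivative (TamR). The labels call the TamR library untreated, whereas the methods of the study grow TamR cells in charcoal-stripped medium with tamoxifen. Which of these held for the T47D TamR cells was not settled. Resistance, drug, medium, copy number and time in culture cannot be told apart in this comparison, which rests on 1 derived line. With 1 library for each of the 6 conditions there are no replicates and no test was made, and differences are set beside the range of the 5 parental libraries. Whether replicate cultures were pooled is not stated for T47D. Compartment data hold no expression, so the cell identity could not be checked against marker genes.

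In G1, D cyclins bind CDK4 and CDK6 and start the phosphorylation of the RB1 protein, which releases E2F factors, and E cyclins with CDK2 complete it and open the way to S phase. CDKN1B encodes an inhibitor of cyclin E and CDK2, CDKN2A encodes an inhibitor of CDK4 and CDK6, and MYC raises transcription of several of these genes. In estrogen receptor-positive breast cancer cells, MYC and CCND1 are well-known early targets of estrogen, and the D cyclin kinases are drug targets.

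What was measured at each gene is the compartment score, the first eigenvector of the corrected contact matrix between chromosomes, with 1 value for each 100 Kb bin. Bins with a positive score belong to compartment A, the active part of the genome, and those with a negative score to compartment B, the inactive part. Scores are small, so they are printed multiplied by 1000. A gene has the mean score of the bins that its body overlaps, and its percentile is the rank of that score among the 27898 bins scored in all 6 libraries. In this scale the border between B and A lay at percentiles 52.4 to 56.0, depending on the library. Across bins, which are not replicates, the Pearson correlation was 0.985 to 0.996 between parental libraries and 0.894 to 0.901 between these and TamR. All protein-coding genes moved by a median of 4.07 percentile points between T0 and TamR, and by 1.18 to 1.59 points between T0 and an E2 library. The depth behind the scores is unknown, because the files hold no contact counts.

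The upstream sequences of 4 genes are shown because they mark start sites inside the bins whose scores are given below. They were also searched for the GC box and, apart from it, for motifs of the MYC, estrogen receptor and E2F factors. They are RefSeq promoters (table build GRCh38.p14), matched without a mismatch to GRCh37, and 6 of the 10 genes have an entry. Each line gives bases before the transcript start, 5′ to 3′ on the gene's strand, 250 of them for CCNE1, CDK6 and CDKN1B. The CDK4 line stops after 113 bases, where annotated exons of other transcripts begin. Capitals mark matches on either strand to the GC box GGGCGG, the E-box CACGTG bound by MYC with MAX, and the estrogen response half-site GGTCA. In the capital run of 9 letters in CDK4 the half-site and an E-box overlap.
CCNE1: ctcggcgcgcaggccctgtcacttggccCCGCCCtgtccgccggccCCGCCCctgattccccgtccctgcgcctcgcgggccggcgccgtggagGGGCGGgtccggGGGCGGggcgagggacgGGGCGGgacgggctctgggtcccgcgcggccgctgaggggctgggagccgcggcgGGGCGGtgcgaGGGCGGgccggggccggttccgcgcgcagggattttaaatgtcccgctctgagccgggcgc
CDK4: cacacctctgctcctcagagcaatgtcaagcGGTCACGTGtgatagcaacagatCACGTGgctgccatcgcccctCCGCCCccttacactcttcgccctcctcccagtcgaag
CDK6: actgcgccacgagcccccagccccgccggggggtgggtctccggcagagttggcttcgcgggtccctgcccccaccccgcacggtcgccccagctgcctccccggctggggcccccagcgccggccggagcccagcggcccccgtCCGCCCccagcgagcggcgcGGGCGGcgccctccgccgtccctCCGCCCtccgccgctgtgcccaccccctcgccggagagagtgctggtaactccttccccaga
CDKN1B: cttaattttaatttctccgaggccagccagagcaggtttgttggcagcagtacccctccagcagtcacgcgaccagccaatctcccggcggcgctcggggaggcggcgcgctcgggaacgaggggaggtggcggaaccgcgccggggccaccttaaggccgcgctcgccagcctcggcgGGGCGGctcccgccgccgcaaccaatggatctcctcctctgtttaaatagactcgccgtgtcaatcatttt

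On GRCh37 these stretches are chr19:30302648-30302897 on the plus strand for CCNE1, chr12:58146231-58146343 on the minus strand for CDK4, chr7:92465888-92466137 on the minus strand for CDK6 and chr12:12870052-12870301 on the plus strand for CDKN1B. Over its 250 bases CCNE1 held 7 GC boxes, CDK6 and CDK4 held 3 each and CDKN1B held 1. The 250 bases of CDK4 also held 3 E-boxes, of which 2 are in the stretch shown, and 3 half-sites. The entries not shown were another of CDK6 with 0 GC boxes, 2 of CDKN2A with 0 and 1, and 1 of RB1 with 0. Half-sites were 1 in the RB1 entry and 1 in the CDKN2A entry with the GC box. Of 35116 human promoter entries, 42.6% held a GC box, 6.34% an E-box and 32.6% a half-site in the same length. An E2F site spelled TTTCGCGC or TTTGGCGC was in 0.968% of all entries and in none of the 8 entries of these 6 genes, which says only that these letters are not in these windows. The only RB1 entry lies at a start inside the gene, 172706 bases from the gene's start. The stretch before the annotated start of RB1 was therefore not examined. A match is a description of letters and not of a bound site.

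Across the libraries 7 of the 10 genes lay in compartment A in each of the 5 parental libraries and 6 did in TamR. The gene that differed was MYC. CDK6, RB1 and CDKN2A lay in B in all 6 libraries. Of all protein-coding genes, 75.8% to 78.1% lay in A, and of all bins 44.0% to 47.6%. The median percentile of the 10 genes lay between 69.1 and 72.7, below the median of all genes, which was 79.7 to 80.2.

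**Figure D1:**
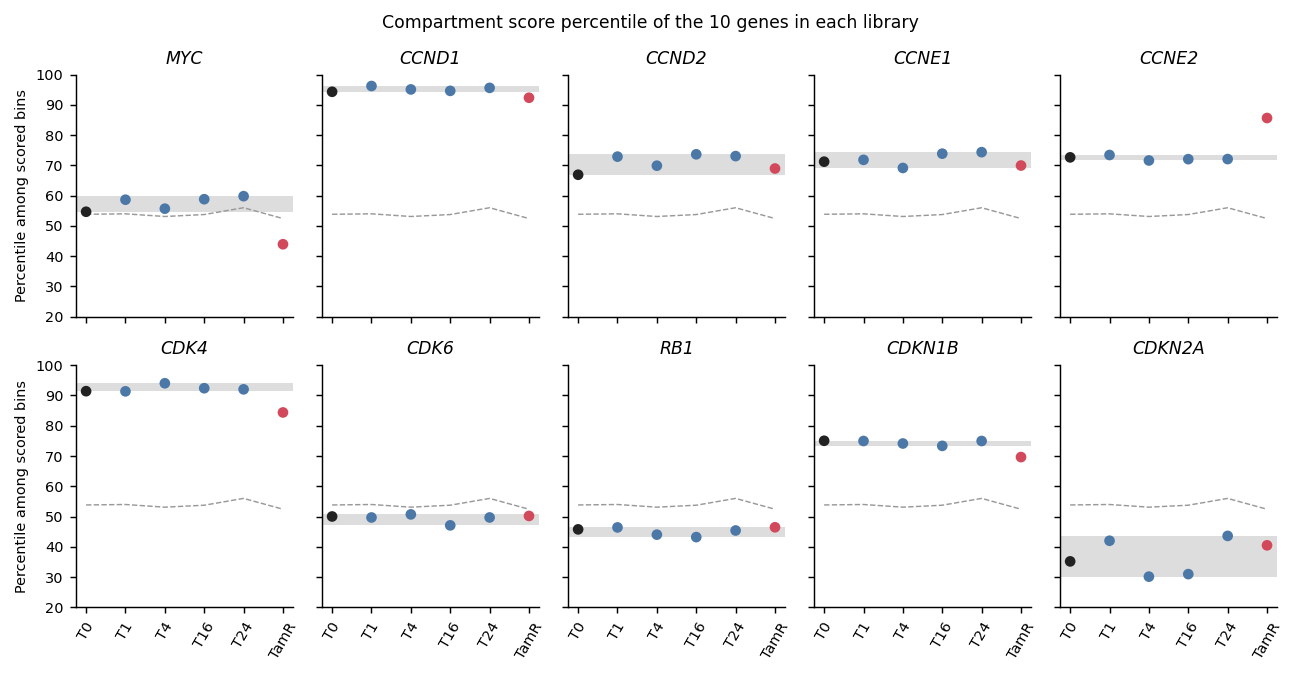
Percentile of the compartment score of each of the 10 genes (vertical axis, percentile among scored bins of the library) in the 6 libraries (horizontal axis): black T0, blue E2 libraries, red TamR, 1 library per point and no error bars; the grey band is the range of the 5 parental libraries and the dashed line the border between B and A. MYC lay at 54.7 to 59.8 in the parental libraries and at 43.9 in TamR, whereas CCNE2 lay at 71.6 to 73.4 and at 85.6.

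MYC, the transcription factor gene that stands above this pathway, was the gene whose compartment differed between T0 and TamR. It lies at chr8:128747680-128755197 on the plus strand, within a single bin. Its score was 0.159 at T0, 0.873 at T1, 0.530 at T4, 0.965 at T16, 0.725 at T24 and -1.55 in TamR. All 5 parental scores were positive and small, and the TamR score was negative. In percentiles MYC lay at 54.7 at T0, between 55.7 and 59.8 after E2, and at 43.9 in TamR. The 4 E2 libraries thus lay above T0, and TamR lay 10.7 points below the lowest parental library. Of all protein-coding genes, 21.7% moved as far in either direction between T0 and TamR. When ranks were taken within the chromosome, TamR minus T0 was -8.22 points for MYC, with 67.4 and 59.1, and TamR was again the lowest library.

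The window around MYC, which is the gene's bin with 5 bins on either side, differed as a block. MYC sits at a step in the track, with B chromatin before it and A chromatin after it. At T0 the mean score of the 5 bins before the gene was -2.90 and that of the 5 bins after it 3.03. In TamR these means were -4.16 and -0.0902. All 11 bins were lower in TamR than in every parental library, where 43.6% of all scored bins were lower and 35% were higher than every parental library. The number of A bins was 6 in each parental library and 1 in TamR. The stretch of A bins that follows MYC reached 600 Kb at T0 and 800 Kb in each E2 library, and in TamR the gene itself closed a B stretch that reached 1000 Kb before it. The bins from chr8:128900001 to 129400000, 500 Kb in all, had a mean of 2.57 at T0 and -0.506 in TamR and were positive in all 5 parental libraries.

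PVT1, a long noncoding RNA gene next to MYC that was picked out after its values were seen, overlaps 4 bins after MYC, at chr8:128806772-129199347. The bin of its start is not in the run above, with a score of 3.53 at T0 and 0.472 in TamR, and the other 3 bins are. The mean score over the 4 bins was 3.12 at T0, 2.71 at T1, 2.82 at T4, 2.34 at T16, 2.41 at T24 and -0.0204 in TamR. PVT1 was thus in A in the parental libraries and next to the border in TamR, with its start bin in A. Only 2 protein-coding genes start in the whole MYC window, the fewest of the 10 windows.

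**Figure D2:**
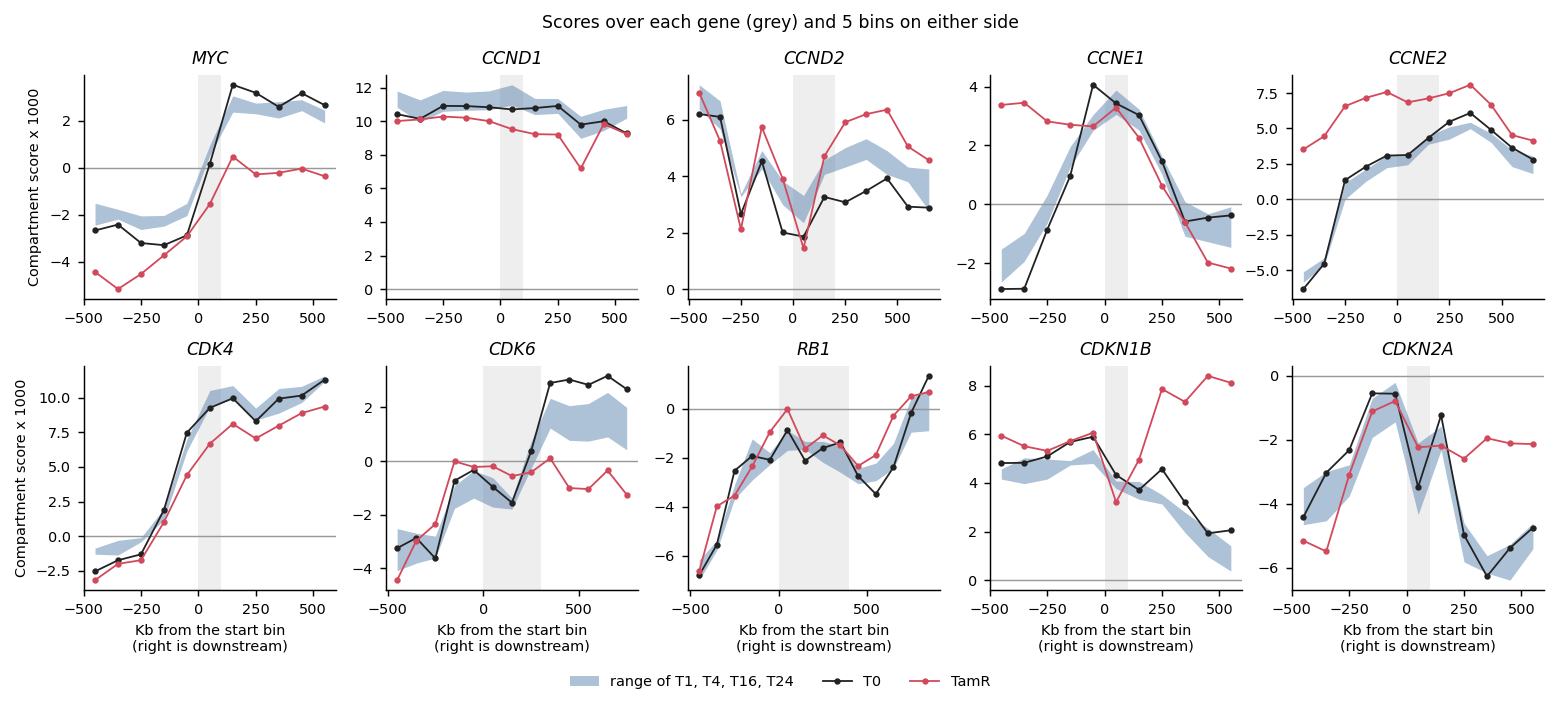
Compartment score multiplied by 1000 (vertical axis, a different scale in each panel) against distance in Kb from the start bin of each gene, read along its strand (horizontal axis): black T0, red TamR, blue band the range of the 4 E2 libraries, grey the bins of the gene, horizontal line the border at 0. TamR runs below the parental libraries in all 11 bins of MYC and CDK4 and above them in all 12 bins of CCNE2.

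CCND1, the D cyclin gene that responds to estrogen in breast cancer cells, had the highest percentile of the 10 genes in every library. It lies at chr11:69455924-69469242 on the plus strand. The score was 10.7 at T0, 12.1 at T1, 11.1 at T4, 11.0 at T16, 12.2 at T24 and 9.54 in TamR. All 4 E2 libraries were above T0, and TamR was below all 5 parental libraries. The distances were short on the percentile scale, where T0 was 94.3, the E2 libraries were 94.6 to 96.2 and TamR was 92.3. Of all genes, 68.2% moved by at least the 1.98 points of CCND1 between T0 and TamR. Within the chromosome its percentile was 91.7 at T0 and 91.5 in TamR.

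Every bin of the CCND1 window was in A in all 6 libraries, inside an A stretch that reached 8900 Kb or more before the gene and 8800 Kb or more after it. TamR was below all parental libraries in 9 of the 11 bins, against 43.6% of all bins. The fibroblast growth factor genes FGF19, FGF4 and FGF3, neighbours of CCND1 that are named here after their values were seen, lie in this window. Their scores at T0 were 10.8, 10.8 and 10.9, and in TamR they were 9.24, 9.24 and 9.21. FGF19 and FGF4 share a bin, so their values are one measurement.

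CCND2, the second D cyclin gene, lies at chr12:4378937-4414519 on the plus strand and spans 2 bins. Its score was 2.56 at T0, 3.62 at T1, 3.20 at T4, 3.84 at T16, 3.39 at T24 and 3.07 in TamR. All 4 E2 libraries were above T0, as for MYC and CCND1, and TamR lay inside the parental range. The percentile was 66.9 at T0, 69.9 to 73.6 after E2 and 68.9 in TamR. All 12 bins of the window were in A in every library. The 5 bins after the gene were higher in TamR than in all parental libraries, as were 35% of all bins. Their means were 3.25 at T0 and 5.61 in TamR. The bin of the gene's start was lower in TamR than at T0, with 1.86 at T0 and 1.44 in TamR.

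The count of genes whose 4 E2 libraries all lay above T0 was 3 of 10, namely MYC, CCND1 and CCND2, against 25.6% of all genes. All 4 lay below T0 for 1 of 10, CDKN1B, against 28.7% of all genes. This way of counting was chosen after the values were seen, and both shares are near those of all genes. No compartment of the 10 genes differed from T0 at any E2 time point, where 5.31% of all genes had such a difference. Of the 117 bins in the 10 windows, 5 differed from T0 in at least 1 E2 library, which is 4.27%, against 7.11% of all scored bins. These were 2 bins beside CCNE1, 2 beside RB1 and 1 in CDK6.

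CCNE1, an E cyclin gene, had a similar score in all 6 libraries while the chromatin before it differed. It lies at chr19:30302898-30315219 on the plus strand. The score was 3.43 at T0, 3.37 at T1, 3.06 at T4, 3.89 at T16, 3.67 at T24 and 3.29 in TamR. The TamR value lay inside the parental range, and the percentiles were 71.2 at T0, 69.1 to 74.4 after E2 and 69.9 in TamR. Within chromosome 19, which is mostly A, the picture was another one, with percentiles of 25.3 to 27.8 in the parental libraries and 14.7 in TamR.

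In the CCNE1 window 3 of 11 bins were in B at T0 and in A in TamR, all of them before the gene. The farthest bin before the gene had a score of -2.88 at T0 and 3.38 in TamR. It belonged to 6 adjacent bins, chr19:29500001-30100000, whose mean was -2.70 at T0 and 2.04 in TamR. The A stretch before CCNE1 was therefore 200 or 300 Kb long in the parental libraries and 800 Kb in TamR, whereas after the gene it was 200 or 300 Kb in every library. The protein-coding genes that start in the bins that differed are VSTM2B, with -0.868 at T0 and 2.82 in TamR, and POP4, a subunit of ribonuclease P, with 0.0435 and 2.76. The 5 bins after CCNE1 went the other way, with means of 0.616 at T0 and -0.376 in TamR.

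CCNE2, the other E cyclin gene, had the largest difference between T0 and TamR of the 10 genes in percentiles of all bins. It lies at chr8:95891998-95908906 on the minus strand and spans 2 bins. Its score was 3.74 at T0, 3.73 at T1, 3.54 at T4, 3.50 at T16, 3.17 at T24 and 6.98 in TamR. The 5 parental scores lay close together and TamR was well above them. The percentile was 72.6 at T0, 71.6 to 73.4 after E2 and 85.6 in TamR, 13.0 points above T0, and 16.2% of all genes moved as far. Within the chromosome the difference was 12.3 points, and by that measure CCNE1, with -13.1 points, differed more.

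All 12 bins of the CCNE2 window were higher in TamR than in every parental library, as were 35% of all bins. The 5 bins at higher coordinates, upstream of this minus-strand gene, had means of -0.823 at T0 and 5.86 in TamR, and 2 of them were in B at T0 and in A in TamR. In the outermost of these the score was -6.33 at T0 and 3.52 in TamR. They opened a run of 11 bins, chr8:96300001-97400000, with means of -4.95 at T0 and 3.01 in TamR. The A stretch at higher coordinates was 300 Kb long in each parental library and 8100 Kb in TamR, and that at lower coordinates was 800 or 1100 Kb and 3600 Kb. MYC and CCNE2 lie on the same chromosome and their windows differed in opposite directions.

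**Figure D3:**
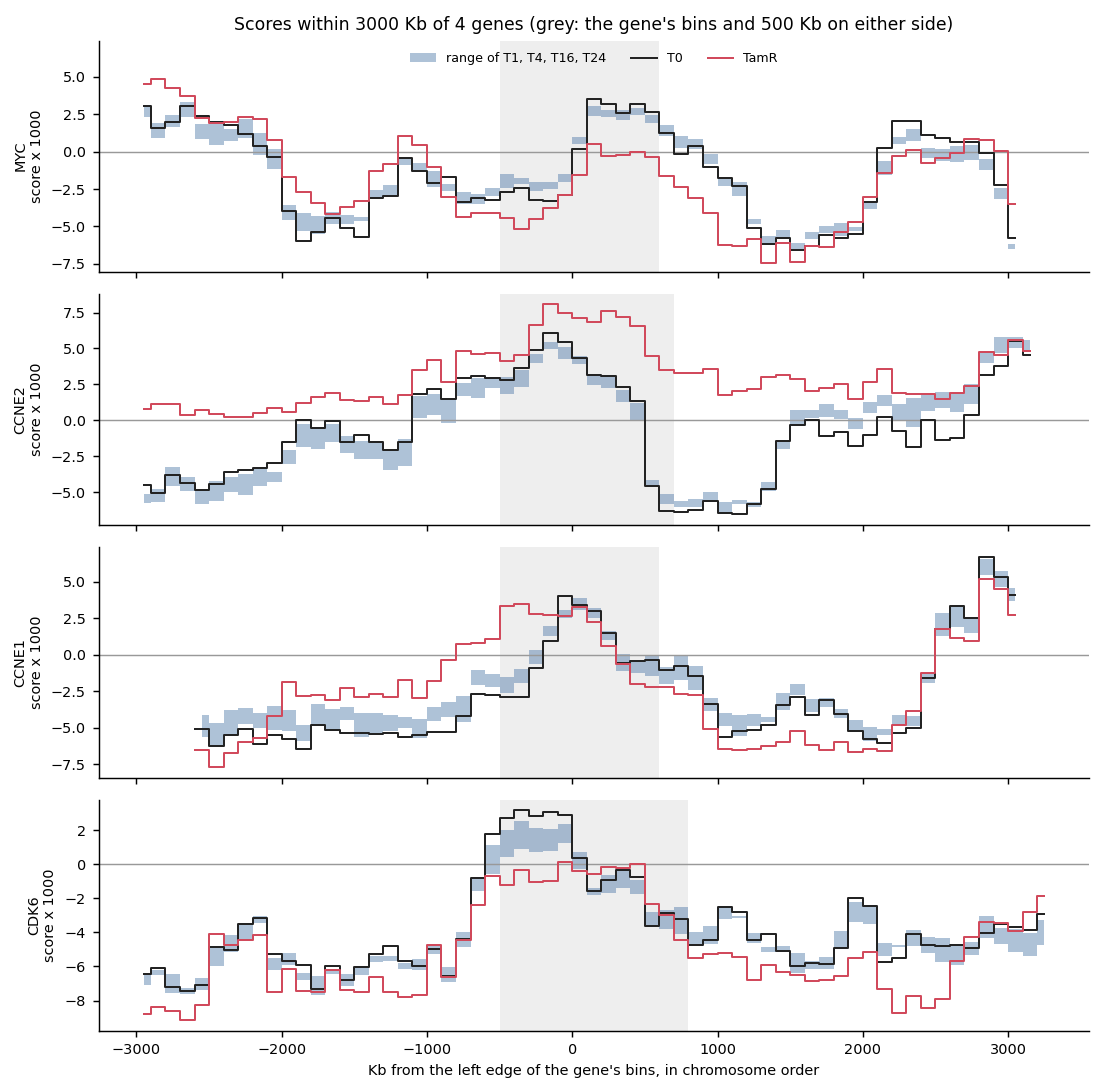
Compartment score multiplied by 1000 (vertical axes) over 3000 Kb on either side of MYC, CCNE2, CCNE1 and CDK6 (horizontal axis, Kb in chromosome order from the left edge of the gene's bins): black T0, red TamR, blue the range of the 4 E2 libraries, grey the gene's bins and 500 Kb on either side, gaps where a bin has no score. Beyond CCNE2 the parental tracks drop below 0 over a run with a mean of -4.95 at T0, where TamR stays positive with a mean of 3.01.

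CDK4, the kinase partner of the D cyclins, was lower in TamR across its whole window without a difference of compartment. It lies at chr12:58141510-58149796 on the minus strand. Its score was 9.26 at T0, 9.34 at T1, 10.5 at T4, 9.75 at T16, 9.91 at T24 and 6.68 in TamR. The parental values did not come near the TamR value. The percentile was 91.4 at T0, 91.4 to 94.0 after E2 and 84.4 in TamR, 7.03 points below T0, and 34.0% of all genes moved as far. TamR was below all parental libraries in 11 of 11 bins, against 43.6% of all bins. The number of A bins in the window was 8 in every library, and 34 protein-coding genes start there, the most of the 10 windows. The border of the A stretch at higher coordinates lay 200 Kb from the gene in all 6 libraries, and at lower coordinates the stretch was 2100 Kb long in each parental library and 12600 Kb in TamR.

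CDK6, the other D cyclin kinase gene, lies at chr7:92234235-92465887 on the minus strand and spans 3 bins. The score was -0.716 at T0, -0.789 at T1, -0.441 at T4, -1.19 at T16, -1.13 at T24 and -0.390 in TamR. The gene was thus in B and near the border throughout, and its percentile among all bins stayed between 47.1 and 50.7, with 50.2 in TamR. Within the chromosome the percentile was 58.4 at T0 and 51.9 in TamR, below the parental range of 55.0 to 59.2. By the start bin, TamR minus T0 was 2.68 points. In scores, the larger difference was in the chromatin on the side of its 3′ end. The 5 bins there had means of 2.93 at T0, 2.12 at T1, 2.21 at T4, 1.56 at T16, 0.813 at T24 and -0.708 in TamR. The E2 means all lay between T0 and TamR. In this window 5 bins were in A at T0 and in B in TamR, and the number of A bins was 6 at T0, 5 at T24 and 1 in TamR.

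Of these bins, 4 belong to a run of 5, chr7:91600001-92100000, with means of 2.69 at T0 and -0.867 in TamR, and the fifth is the bin with the 3′ end of CDK6 itself, with 0.357 at T0 and -0.421 in TamR. In these bins 9 protein-coding gene models start, 3 of the first 5 of them without a symbol. CYP51A1, an enzyme of cholesterol synthesis, had a score of 2.68 at T0 and -1.25 in TamR. LRRD1 had 2.93 and -0.799.

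RB1, the pocket protein gene that the D cyclin kinases act on, lies at chr13:48877880-49173572 on the plus strand and spans 4 bins. Its score was -1.49 at T0, -1.34 at T1, -1.67 at T4, -1.87 at T16, -1.84 at T24 and -1.06 in TamR. RB1 was in B in all libraries, and TamR was the highest of them. In percentiles the distance was small, since TamR at 46.45 lay only 0.0502 points above the highest parental library. TamR was above all parental libraries in 8 of the 14 bins of the window, against 35% of all bins. One bin, 400 Kb after the gene, had -0.174 at T0 and 0.511 in TamR, and its sign also varied among the E2 libraries. FNDC3A starts there, with 0.716 at T0 and 1.04 in TamR over its whole body.

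CDKN1B, the inhibitor of cyclin E and CDK2, lies at chr12:12838432-12875303 on the plus strand, within 1 bin. Its score was 4.33 at T0, 4.07 at T1, 4.07 at T4, 3.77 at T16, 3.80 at T24 and 3.21 in TamR. All 4 E2 libraries were below T0, and TamR was below all of them. In percentiles T0 was at 75.0, the lowest E2 library at 73.3 and TamR at 69.6. This difference belonged to the single bin of the gene. The 5 bins before and the 5 bins after CDKN1B were all higher in TamR than in every parental library, as were 35% of all bins. After the gene the means were 3.09 at T0 and 7.33 in TamR. When scores were averaged over 3 adjacent bins, TamR minus T0 was 0.158 points in place of -5.39, so the direction rests on that 1 bin. The A stretch after CDKN1B was 500 Kb long in each parental library and 3300 Kb in TamR.

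CDKN2A, the inhibitor of CDK4 and CDK6, had the lowest median percentile of the 10 genes. It lies at chr9:21967751-21995300 on the minus strand. The score was -3.48 at T0, -2.10 at T1, -4.34 at T4, -4.17 at T16, -2.13 at T24 and -2.23 in TamR. No order with time was visible, since T1 and T24 were high and T4 and T16 were low. The parental percentiles ran from 30.1 to 43.6, the widest range of the 10 genes, and TamR at 40.5 lay inside it. All 11 bins of the window were in B in every library. At lower coordinates, beyond the 3′ end of the gene, TamR was above all parental libraries in 4 of 5 bins, against 35% of all bins. The means there were -4.52 at T0 and -2.19 in TamR. At higher coordinates they were -2.17 and -3.13, and TamR was below all parental libraries in 2 of 5 bins, against 43.6% of all bins. CDKN2B, a related inhibitor gene that starts in the next bin and is named after its values were seen, had -0.558 at T0 and -0.786 in TamR.

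Set against all genes, the 10 genes did not stand out by how many of them differed. The compartment differed between T0 and TamR for 1 of 10, against 9.61% of all protein-coding genes. From A to B the count was 1, MYC, against 4.46% of all genes, and from B to A it was 0, against 5.15%. TamR lay below all 5 parental libraries for 4 genes, MYC, CCND1, CDK4 and CDKN1B, against 43.8% of all genes. It lay above all 5 for 2 genes, CCNE2 and RB1, against 33.4%. With all 5 parental libraries TamR was outside their range for 6 of the 10 genes, against 77.3% of all genes. Without the T4 library the count was 8, since CCNE1 and CDK6 were added. It was also 8 with the start bin and within chromosomes, and the share of all genes was not counted in these settings. A percentile more than 10 points lower in TamR than at T0 was found for 1 gene, MYC, against 11.4% of all genes, and a percentile more than 10 points higher for 1 gene, CCNE2, against 12.5%. The median absolute difference was 3.68 points over the 10 genes and 4.07 over all genes.

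**Figure D4:**
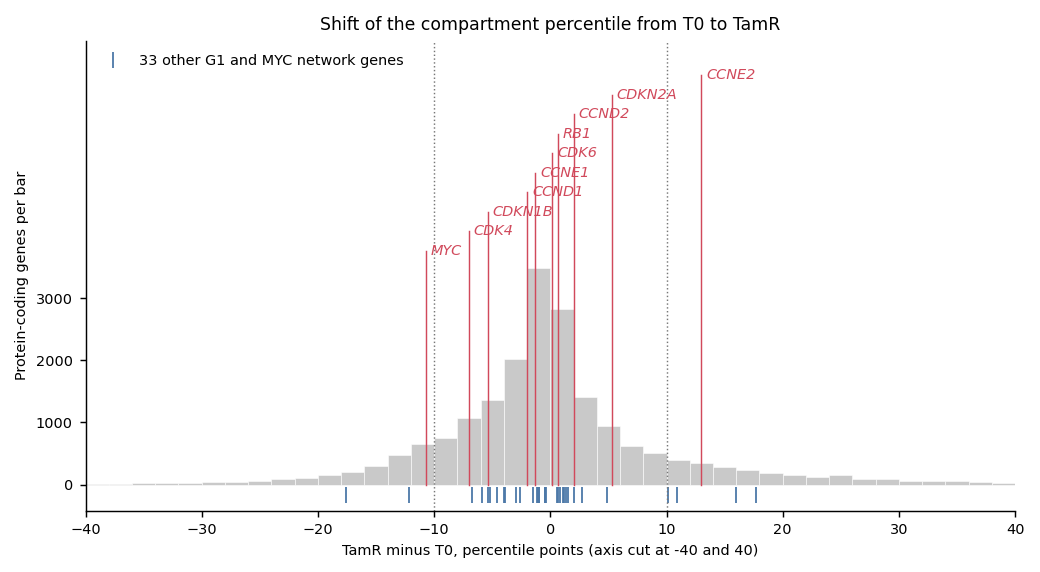
Number of protein-coding genes (vertical axis) by TamR minus T0 in percentile points (horizontal axis, cut at -40 and 40), with the 10 genes as labelled red lines whose heights only separate the names, and the 33 other genes of the pathway as blue ticks. Dotted lines mark 10 points in either direction, and MYC lies beyond the lower one and CCNE2 beyond the upper one.

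Over the 10 windows, 16 of 117 bins, or 13.7%, lay in another compartment in TamR than at T0, against 13.9% of all scored bins. The 16 bins were in 5 windows, 10 of them from A to B around MYC and CDK6, and 6 from B to A around CCNE1, CCNE2 and RB1. TamR was below every parental library in 48 of the 117 bins and above it in 51, or 41.0% and 43.6%, beside the 43.6% and 35% of all bins. Bins of a window are neighbours and not independent. With 2 bins on either side in place of 5 the share was 7.02%, or 4 of 57 bins, so 12 of the 16 bins that differed lay farther from the genes.

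By median over the 6 libraries the order of the percentiles was CCND1, CDK4, CDKN1B, CCNE2, CCNE1, CCND2, MYC, CDK6, RB1 and CDKN2A. The parental ranges overlapped for every pair among CDKN1B, CCNE2, CCNE1 and CCND2, and for RB1 and CDKN2A. Within single libraries, RB1 lay above CDKN2A in all 6. CDKN1B lay above CCNE2 in the 5 parental libraries and below it in TamR, with 69.6 and 85.6. For the other pairs that overlapped, the order varied between libraries. CCND1 and CDK4 stood apart from the others, with parental ranges of 94.3 to 96.2 and 91.4 to 94.0. The GC content of the bins was 50.5% for CCND1 and 49.5% for CDK4, and it was 38.3% for CDK6 and 38.7% for RB1, which lay in B. CCNE1 had 49.9%, CCND2 44.2%, MYC 44.5%, CDKN1B 43.0%, CCNE2 42.1% and CDKN2A 40.6%. Base composition is the same in every library, and its part in the levels was not tested.

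The protein-coding genes on other chromosomes most like MYC over the 6 libraries, by mean absolute difference in percentile, were FANK1 with 0.758 points, MKI67, the gene of the proliferation marker Ki-67, with 0.824, and USP28 with 0.906. MKI67 lay at 56.2 at T0 and at 42.0 in TamR. For CCND1 they were CREBBP, which encodes a histone acetyltransferase, with 0.349 points, CFAP74 with 0.398 and L3MBTL2 with 0.449. CREBBP lay at 93.8 at T0 and at 92.9 in TamR.

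The rest of the pathway was followed in a list of 33 genes: 7 cyclins and kinases, 9 pocket proteins and E2F factors, 5 inhibitors, 4 subunits of ubiquitin ligases that act on such proteins, and 8 genes of the MYC network. In A lay 28 of the 33 at T0 and 27 in TamR, against 77.4% and 78.1% of all protein-coding genes. The compartment differed between T0 and TamR for 1 of the 33, against 9.61% of all genes. It was CUL1, the scaffold of these ligases, with 0.522 at T0 and -0.203 in TamR. When the start bin was used in place of the whole body, the count was 0. E2F3, one of the activating E2F genes, was the only gene of the list with another compartment than T0 in an E2 library, with 0.340 at T0 and -0.112 at T24, so that 1 of 33 stands against 5.31% of all genes. TamR lay below all parental libraries for 16 of the 33 genes, against 43.8% of all genes, and above them for 10, against 33.4%, and neither count sets the list apart.

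Differences of more than 10 points were found for 6 of the 33 genes, against 23.9% of all genes, so the list as a whole did not stand out and the 6 genes are given as values. CDK7, the kinase that activates the cell cycle kinases, lay at 87.5 at T0 and 69.9 in TamR, and MNAT1, its assembly factor, lay at 61.3 and 71.5. RBL2, a pocket protein related to RB1, lay at 75.3 and 63.2. E2F3 lay at 55.6 and 71.6. CDKN2C, an inhibitor of CDK4 and CDK6, lay at 62.0 and 79.7. MXD1, a partner of MAX that opposes MYC, lay at 77.9 and 88.8. Of these 6, 4 were higher and 2 lower in TamR, and the median absolute difference over the list was 2.60 points.

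**Figure D5:**
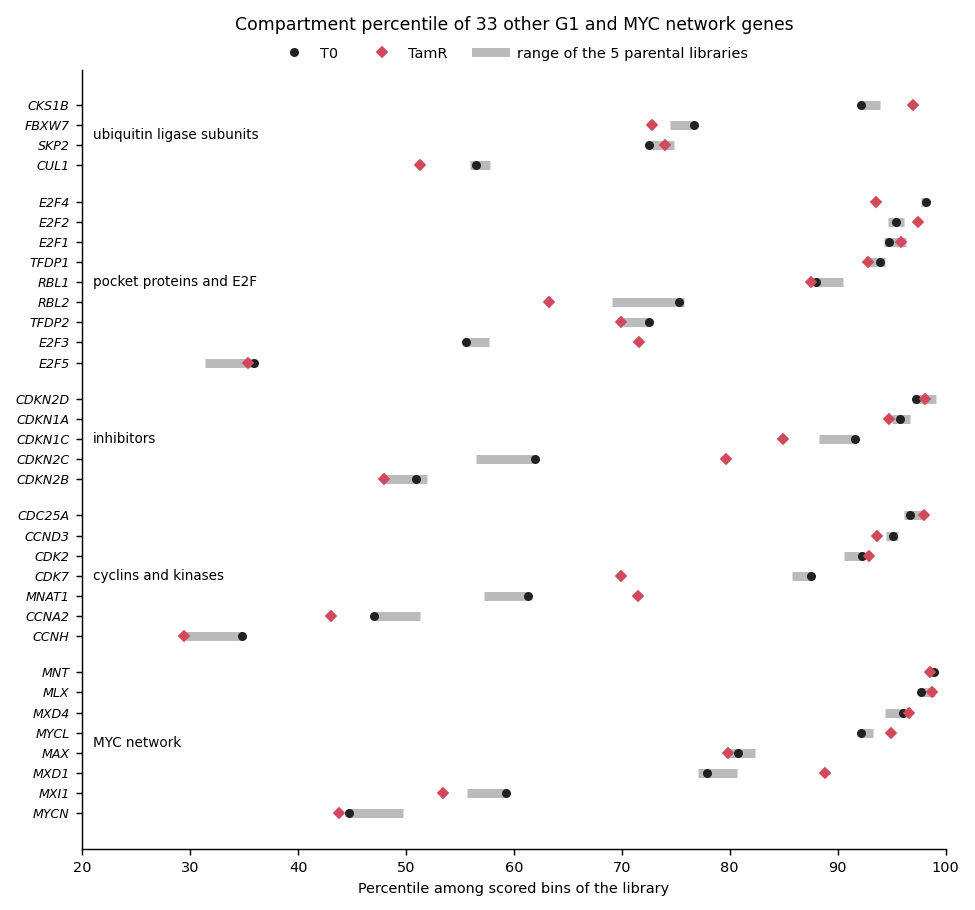
Percentile of the compartment score (horizontal axis) of the 33 other genes of the pathway, grouped by role (vertical axis): black points T0, red diamonds TamR, grey bars the range of the 5 parental libraries, 1 library per condition. CDK7 is the gene farthest to the left of its bar, at 69.9 in TamR, and CDKN2C the one farthest to the right, at 79.7.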

How the data were processed

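TCC was measured in 5 parental T47D libraries and 1 TamR library. According to the methods of the study, the authors aligned reads to hg19 iteratively with bowtie2, removed low-coverage bins, applied iterative correction, set contacts within chromosomes aside and took the first eigenvector with HiCLib. They deposited 1 score per 100 Kb bin for each library. Scores are scaled within each library, to a sum of squares of 0.998 to 0.999 before multiplication, so genes were compared by sign and percentile. Scores are also given, and the bins of windows were compared by score. The SD of the scores was 5.98 in each library, and their median ran from -1.08 at T24 to -0.429 in TamR. Small differences can therefore depend on the measure. For CDK6 the TamR score was the highest of the 6 libraries, whereas its percentile lay within the parental range. Of 30376 bins, 27898 had a score other than 0 in all 6 libraries and the others were left out. The last bin ended at the GRCh37 chromosome length on 23 of 23 chromosomes, so genes were taken from GENCODE 44 mapped to GRCh37. No test was possible with 1 library per condition. The 10 genes, the pathway list and the thresholds were chosen with earlier results of these data known. Named were all 10 genes, genes of the list whose compartment differed between T0 and TamR or that moved by over 10 points, at most 5 protein-coding genes per window, in genome order, that start in bins that differed, and the 3 genes most like MYC and CCND1. Python 3.11.15, numpy 2.4.6 and pandas 2.3.3 were used, and the counting was tested on simulated tracks. The alternatives tried were the start bin, smoothing over 3 bins, a border at the library median, the parental mean as reference, scores divided by their SD, percentiles within chromosomes, other window widths, bins with 0 kept, each E2 library left out, and, for the shares of all genes, all bins or autosomes alone.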

Additional observations from a re-analysis of the deposited data

How the results depend on the processing

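No paired analysis was possible because the 6 libraries are unreplicated. MYC was the gene whose compartment differed between T0 and TamR under every alternative run. The number of pathway genes that differed was 0 with the start bin, and with a border at the library median it was 1 again but the gene was CDKN2B and not CUL1. With that border the number of genes that differed from T0 at an E2 time point was 1, CDK6, in place of 0. The share of all genes under that border was not counted. With 2 bins on either side the share of window bins that differed was 7.02%. TamR minus T0 of CDKN1B was 0.158 points after smoothing over 3 bins, whereas it was negative as reported. The sign of TamR minus T0 also depended on the setting for CCND2, CDK6 and CDKN2A, which were positive as reported. For CCND2 it was negative with the start bin and with the parental mean as reference. For CDK6 and CDKN2A it was negative after smoothing and within chromosomes. As reported, TamR lay inside the parental range for CCND2, CDK6 and CDKN2A. The count of genes that moved by over 10 points was 2 in every setting, but the genes were CCNE2 and CDK4 on the SD scale, with a threshold of 0.4 SD, and CCNE1 and CCNE2 within chromosomes. CCNE2 was called each time and MYC was not in these settings, for which the share of all genes was not counted. The causes were not tested. Of 168 alternatives for single values, 108 stayed within 1 SD of the 5 parental libraries or, for shares of genes, within the 95% Wilson interval. Depth is unknown and a 100 Kb bin holds several genes, so differences smaller than a bin could not be seen.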
